A study of Homo sapiens with 6 samples.

Results

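The 35 genes described here act in S phase, the part of the cell cycle in which the chromosomes are copied. They were listed by name as members of the replication machinery and of the circuit that switches it on; the rule uses no measured value, but the list was drawn up with earlier results of these data known. All 35 were found among the 18132 genes with a probe set of their own. Expression was measured on 6 Affymetrix arrays, each hybridised with RNA of 1 sample of NCI-H929, a line started from a patient's multiple myeloma, a cancer of plasma cells. The 3 PRMT5_down samples carried a lentivirus meant to lower PRMT5, and the 3 control samples a control lentivirus. The titles call both constructs sponges, while the treatment protocol describes a PRMT5 short hairpin RNA made with the vector pLKO.1, puromycin selection and, for comparison, normal NCI-H929. According to the series text the cells were stably transduced, sorted and taken at 1 time. In each group the titles number the samples 1 to 3. The labels do not name separate cultures, and the p-values therefore reflect the spread among these 6 arrays, part of which may be technical. The arrays were meant to point to possible target genes of PRMT5, an enzyme that adds methyl groups to arginines of histones and other proteins.

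A human cell prepares its origins of replication in G1, when the MCM2 to MCM7 proteins are loaded by CDC6 and CDT1 as an inactive ring. The ring becomes an active helicase at the start of S phase, when CDC45 and the GINS proteins join it, and the polymerases then copy both strands with the sliding clamp PCNA. Most of these genes are switched on shortly before S phase by E2F transcription factors, once cyclin E and CDK2 have inactivated the retinoblastoma proteins that hold E2F back. E2F1 itself is a known substrate of PRMT5.

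Promoter sequences, taken from RefSeq (GRCh38.p14), were found for 32 of the 35 genes, the others being MCM4, MCM5 and CCNE2. Each window runs from 250 bases before the first listed start of the gene to 50 after it. The letters searched for E2F, on both strands, were TTTCCCGC, TTTGGCGC, TTTCGCGC and TTTGCCGC. At least 1 of them was present in 18 of the 32 windows, or 56.2%, and in 656 of 14425 windows of all measured genes, or 4.55%. The CCAAT box, bound by NF-Y and searched as CCAAT, was present in 17 of the 32, or 53.1%, against 36.4% of all windows. The letters TTTGAA of the cell cycle homology region, a mark of many G2 and mitosis promoters, were present in 1 of the 32, in RRM1, against 12.1% of all windows and 65.5% of 29 windows of G2 and mitosis genes. A match is a match of letters, not a measured binding site.

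**Figure D1:**
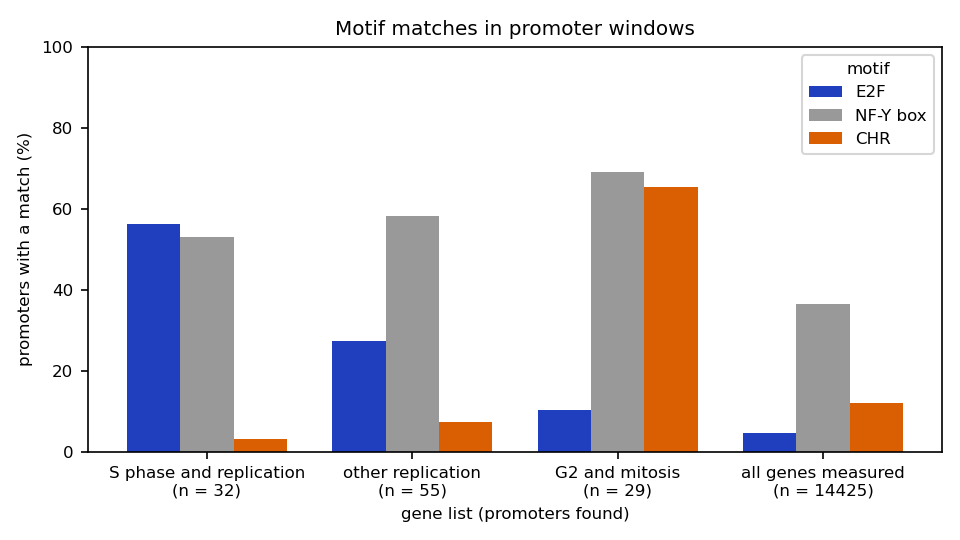
Share of promoter windows, in percent on the vertical axis, with at least 1 match to the E2F, NF-Y (CCAAT) or CHR letters in each gene list. E2F letters were in 56.2% of the S phase and replication windows and CHR letters in 65.5% of the G2 and mitosis windows, against 4.55% and 12.1% of all windows.

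The 100 bases just before the start are shown, 5′ to 3′, for 9 genes with E2F letters wholly within them, in capitals. For the first 6 the signal differed between the replicate numbers of the samples, and for the last 3 that test did not pass. RFC3 and DTL also have such letters there and did not pass, and they are not shown.
MCM6, chr2:135876444-135876543, minus strand: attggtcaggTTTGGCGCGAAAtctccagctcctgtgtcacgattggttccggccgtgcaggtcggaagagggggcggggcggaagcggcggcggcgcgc
GINS2, chr16:85688955-85689054, minus strand: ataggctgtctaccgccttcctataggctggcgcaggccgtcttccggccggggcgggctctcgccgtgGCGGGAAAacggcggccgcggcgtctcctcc
PCNA, chr20:5126623-5126722, minus strand: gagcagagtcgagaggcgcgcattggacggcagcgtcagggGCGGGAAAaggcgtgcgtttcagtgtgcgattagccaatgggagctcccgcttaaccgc
TYMS, chr18:657553-657652, plus strand: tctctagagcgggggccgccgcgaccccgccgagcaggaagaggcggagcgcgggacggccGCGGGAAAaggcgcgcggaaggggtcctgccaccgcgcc
E2F2, chr1:23531234-23531333, minus strand: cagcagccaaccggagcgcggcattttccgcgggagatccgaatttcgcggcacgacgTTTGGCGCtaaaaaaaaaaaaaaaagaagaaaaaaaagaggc
UHRF1, chr19:4909401-4909500, plus strand: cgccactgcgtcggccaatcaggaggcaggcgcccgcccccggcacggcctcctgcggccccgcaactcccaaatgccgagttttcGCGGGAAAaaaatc
CDT1, chr16:88803689-88803788, plus strand: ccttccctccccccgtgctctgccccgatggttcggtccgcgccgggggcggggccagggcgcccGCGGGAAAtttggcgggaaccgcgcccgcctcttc
MCM7, chr7:100101398-100101497, minus strand: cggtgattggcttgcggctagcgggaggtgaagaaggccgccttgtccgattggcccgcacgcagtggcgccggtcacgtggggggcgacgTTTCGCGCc
E2F1, chr20:33686386-33686485, minus strand: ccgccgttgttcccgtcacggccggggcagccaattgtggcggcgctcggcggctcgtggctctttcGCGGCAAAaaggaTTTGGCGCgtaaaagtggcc
In MCM6 the capitals hold 2 overlapping matches, beginning 90 and 86 bases before the start, and in E2F1 they hold 2 separate ones, at 33 and 20 bases before it. PCNA has its match 59 bases before the start and UHRF1 14 bases before it. E2F letters were present in 10 of 19 windows of members that differed between replicate numbers, or 52.6%, and in 8 of 13 of those that did not pass, or 61.5%.

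The values are log2 signals of RMA, a method that puts all arrays on 1 distribution, and the array medians lay between 5.29 and 5.32. Background, set by 333 olfactory receptor genes, was 4.89 to 5.01, and all 35 genes lay above it on all 6 arrays, against 56.3% of all genes. PRMT5, the targeted gene, was at 9.93, 10.35 and 10.30 in control samples 1, 2 and 3 and at 8.63, 9.65 and 9.37 in PRMT5_down samples 1, 2 and 3. The groups did not overlap (log2 difference -0.98, SE 0.28), with a two-sided exact permutation p of 0.1, the smallest that 3 arrays against 3 allow, and the limma adjusted p over all genes was 1, or 0.21 with the replicate number as a block. Of 13 measured plasma cell markers, 7 were at or below background on all 6 arrays (37.7% of all genes), among them IRF4, CD38 and TNFRSF17, while 9 of 10 measured erythroid markers, such as GATA1, KLF1 and ALAS2, were above it on all 6. The other plasma cell markers went the other way, but only XBP1 was far above background, at a mean of 10.43. SDC1, PRDM1, FCRL5 and CD79A were also above background on all 6 arrays and JCHAIN on 5. Their means lay between 5.07 for JCHAIN and 6.24 for CD79A, with SDC1 at 5.23, against a background of 4.89 to 5.01. The defining markers of the labelled cell type were thus in part not above background.

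None of the 35 S phase and replication genes was called when PRMT5_down was compared with control. Limma called 0 of the 35 at an adjusted p under 0.05 and 0 at an unadjusted p under 0.05; over all genes it called 0 (0%), with 149 (0.822%) at an unadjusted p under 0.05, higher for 0.331% and lower for 0.491%. Of the 35, 17 had a positive mean difference (43.3% of all genes) and 18 a negative one, between -0.29 for POLD1 and 0.37 for CCNE2. The median was -0.01, beside -0.02 over all genes. In no gene were the 3 PRMT5_down arrays all above or all below the 3 controls, which happened in 1.26% and 2.66% of all genes. The difference went up in all 3 numbers for 8 of the 35 (11.7% of all genes) and down in all 3 for 4 (15.2%).

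Arrays of the same number moved together, so the pairs give a narrower interval. With the number as a replicate block limma still called 0 of the 35, and 5 had an unadjusted p under 0.05 (8.25% of all genes), 4 higher (4.45% of all genes) and 1 lower (3.8%). These were CCNE2, GINS3, MCM10, SLBP and POLD1. The 95% limma interval with the block lay within 0.5 log2 units, or 1.41-fold, either way for 32 of the 35 (93.7% of all genes). It lay within 1 unit, or 2-fold, for all 35 (99.8% of all genes). Without the block these counts were 17 (60.8% of all genes) and 33 (93.1% of all genes). Limma called no erythroid or plasma cell marker between the groups at an adjusted p (0 of 10 and 0 of 13). The same held with the block, and for all genes (0%) in both fits. At an unadjusted p under 0.05 with the block, 6 of the 10 erythroid markers were higher (4.45% of all genes) and 0 lower (3.8%). Of the 13 plasma cell markers 0 were higher and 1 was lower in that fit. The summed erythroid signal, a sum of log2 values, was 82.3 to 85.9 in controls and 86.0 to 90.1 in PRMT5_down. These ranges only just missed each other, at 85.86 and 85.98, a gap narrower than the difference of AHSP alone in any number. AHSP was at 6.74, 5.85 and 5.39 in control 1, 2 and 3 and at 8.75, 7.04 and 6.92 in PRMT5_down 1, 2 and 3. Taken singly, 2 of the 10 markers, ALAS2 and AHSP, had groups that did not overlap, both higher in PRMT5_down (1.26% of all genes). The mean difference was positive for 9 of the 10 erythroid markers (43.3% of all genes), with a median of 0.24. It was positive for 0 of the 13 plasma cell markers, with a median of -0.08. The summed plasma cell signal, to which 7 markers at background contribute, overlapped, at 60.6 to 62.2 and 59.7 to 61.5. Their part in the values of the 35 genes was not tested.

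**Figure D2:**
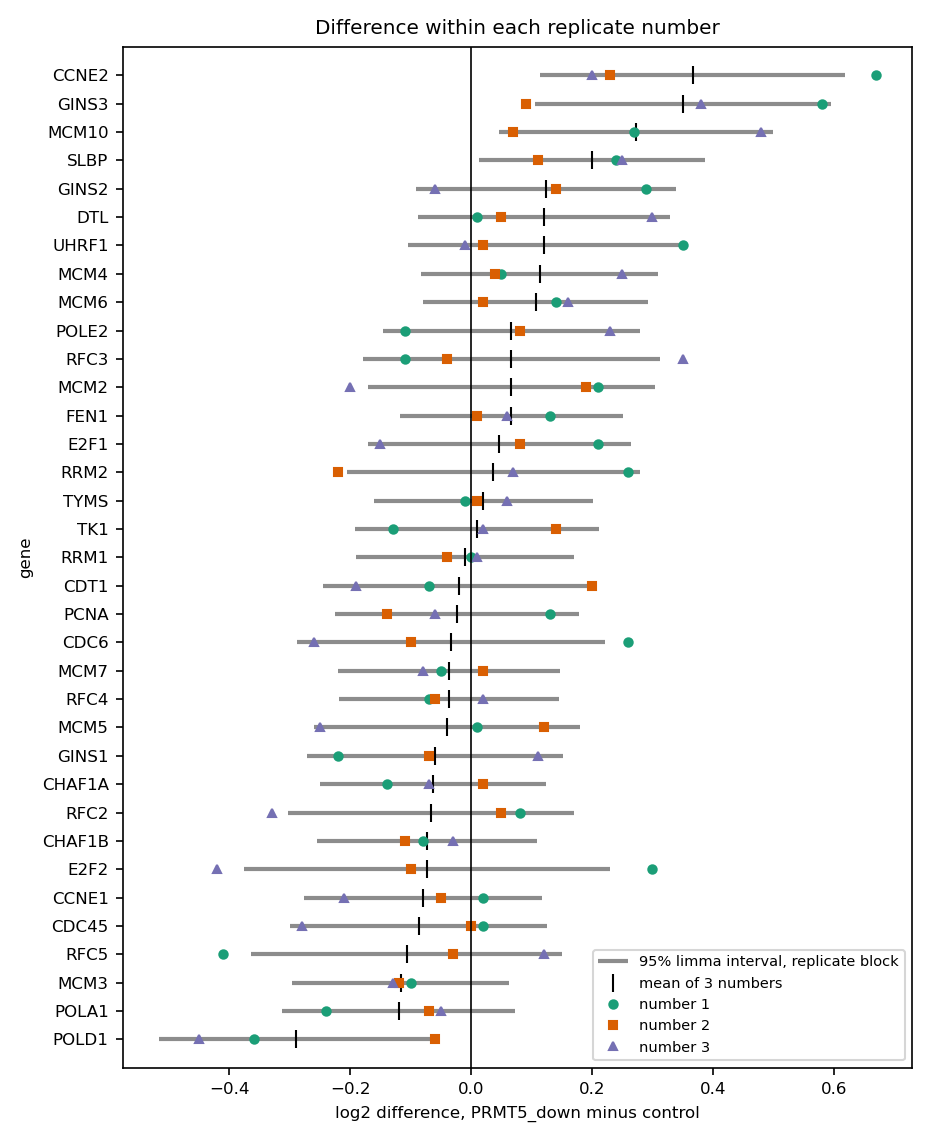
Log2 difference, PRMT5_down minus control, for each of the 35 genes within replicate numbers 1 (circles), 2 (squares) and 3 (triangles), with the mean (tick) and its 95% limma interval from the fit with the replicate block (bar). Means lie between -0.29 for POLD1 and 0.37 for CCNE2, and the intervals of CCNE2, GINS3, MCM10, SLBP and POLD1 do not include 0.

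Among the licensing genes, the helicase subunits MCM3 and MCM4 had the smallest p. MCM3 differed by -0.10, -0.12 and -0.13 in numbers 1, 2 and 3, and its groups overlapped, since control 2 at 10.27 equalled PRMT5_down 1. MCM4 differed by 0.05, 0.04 and 0.25. In the step that activates the helicase, GINS3, a subunit of the GINS complex, differed by 0.58, 0.09 and 0.38 (mean 0.35, block SE 0.11, limma adjusted p = 0.56 with the block). MCM10, which helps the helicase to start, differed by 0.27, 0.07 and 0.48 (mean 0.27, block SE 0.10, limma adjusted p = 0.58). For both genes the smallest gap was in number 2.

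The clamp loader genes RFC5 and RFC2 had no common direction. RFC5 differed by -0.41, -0.03 and 0.12 and RFC2 by 0.08, 0.05 and -0.33. POLD1, the catalytic subunit of DNA polymerase delta, was the member with the lowest mean difference, with -0.36, -0.06 and -0.45 (mean -0.29, block SE 0.10, limma adjusted p = 0.57 with the block). POLA1, the catalytic subunit of the polymerase that makes the primers, differed by -0.24, -0.07 and -0.05. In the supply of nucleotides, thymidylate synthase TYMS differed by -0.01, 0.01 and 0.06 and the ribonucleotide reductase subunit RRM2 by 0.26, -0.22 and 0.07.

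CCNE2, a cyclin E gene, was at 7.65, 6.56 and 6.53 in control 1, 2 and 3 and at 8.32, 6.79 and 6.73 in PRMT5_down 1, 2 and 3. Its difference was 0.67, 0.23 and 0.20 (mean 0.37, SE 0.52 without and 0.11 with the block, limma adjusted p = 1 and 0.56). Without PRMT5_down replicate 1 the mean was -0.15 in the fit with no block. The second cyclin E gene, CCNE1, differed by 0.02, -0.05 and -0.21. SLBP, which binds the stem-loop of histone messages, differed by 0.24, 0.11 and 0.25 (mean 0.20, block SE 0.08, limma adjusted p = 0.59 with the block), and DTL, part of the ubiquitin ligase that removes CDT1 in S phase, by 0.01, 0.05 and 0.30. E2F1 differed by 0.21, 0.08 and -0.15, so its sign was not the same in all numbers.

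Between the replicate numbers most of the 35 genes differed. Number 1 held the highest signals of cyclin E2, ribonucleotide reductase, PCNA, CDC6 and UHRF1 in both groups. A limma F-test over the 3 numbers, with the group taken out, called 21 of the 35 at an adjusted p under 0.05, or 60%, beside 35.1% of all genes. Higher in number 1 than in number 2 were 14 genes (9.11% of all genes) and lower was 1 (9.01%). Against number 3, number 1 was higher for 13 (14.8% of all genes) and lower for 2 (14.5%). Between numbers 2 and 3, 3 were higher in number 2 (10.1% of all genes) and 6 lower (9.02%). Both arrays of number 1 lay above the other 4 for 15 of the 35 (13.9% of all genes), both arrays of number 2 below the other 4 for 10 (10.8%) and both arrays of number 3 below the other 4 for 8 (14.5%). The opposite places were rarer, with number 1 below for 3 (18.1% of all genes), number 2 above for 3 (10.8%) and number 3 above for 6 (20.8%). The calls of CCNE1 and POLD1 had adjusted p-values of 0.049 and 0.039, close to the threshold, where this test is least sure. Each number has 2 arrays, 1 of each group, and the labels do not say what arrays of a number share.

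**Figure D3:**
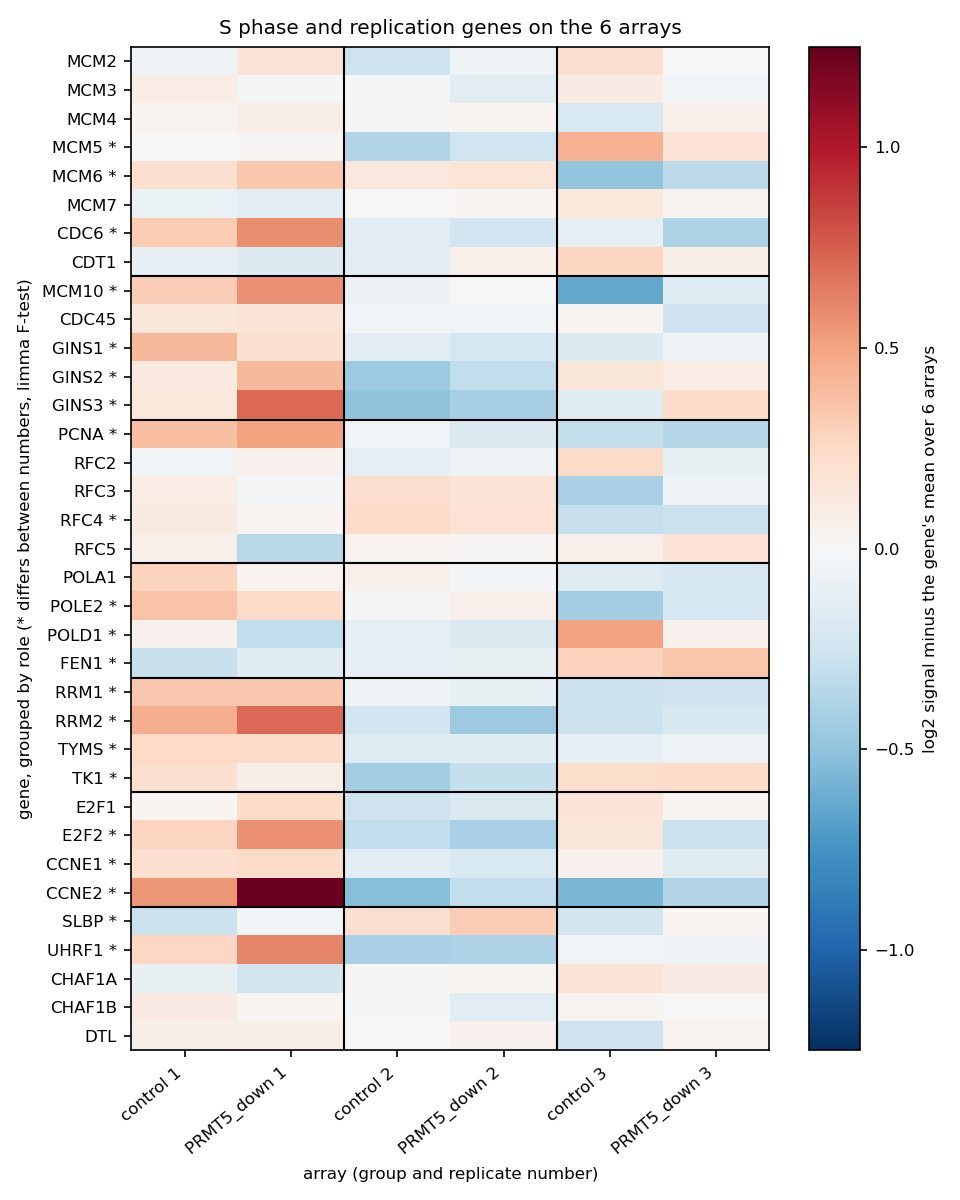
Log2 signal of each of the 35 genes (rows, grouped by role) on each array (columns, in pairs of the same replicate number), minus the gene's mean over the 6 arrays. The 21 genes with a star differed between numbers by the limma F-test, and in 15 genes both arrays of number 1 are above the other 4.

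Of 8 licensing genes 3 differed between numbers, a share near the 35.1% of all genes, and they did so in unlike ways. CDC6, which loads the MCM ring, was at 9.75 and 10.01 in number 1, 9.29 and 9.19 in number 2 and 9.31 and 9.05 in number 3 (control first, then PRMT5_down). Both arrays of number 1 were the highest, by 0.64 over number 2 and 0.70 over number 3 (SE 0.13 each, limma adjusted p = 0.015 and 0.0064). MCM6 was at 10.33 and 10.47 in number 1, 10.26 and 10.28 in number 2 and 9.64 and 9.80 in number 3. Here both arrays of number 3 were the lowest, by 0.68 below number 1 and 0.55 below number 2. MCM5 was at 8.19 and 8.2 in number 1, 7.82 and 7.94 in number 2 and 8.62 and 8.37 in number 3. It went the other way, with number 3 the highest and number 2 the lowest, and number 2 minus number 3 was -0.62 (F-test, limma adjusted p = 0.012). So subunits of the same MCM ring did not share 1 pattern. MCM2, MCM3, MCM4, MCM7 and CDT1 did not pass, with F-test limma adjusted p from 0.16 to 0.67. Among these, both arrays of number 2 were the lowest for MCM2, both of number 1 for MCM7, and both of number 3 the highest for CDT1 and MCM7. For CDT1 the size of the gap depended on the probe set. The one used gave -0.31 for number 1 minus number 3, and the others, above background on all 6 arrays, -0.71 and -0.825. Number 2 minus number 3 was -0.215 in the one used and -0.54 and -0.575 in the others.

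The genes that turn the ring into a helicase differed for 4 of 5 (35.1% of all genes). MCM10 was at 9.28 and 9.55 in number 1, 8.90 and 8.97 in number 2 and 8.34 and 8.82 in number 3. Number 1 was the highest and number 3 the lowest in both groups, 0.84 apart (SE 0.12), or 1.78-fold. GINS3 was at 7.67 and 8.25 in number 1, 7.04 and 7.13 in number 2 and 7.39 and 7.77 in number 3. Its lowest arrays were those of number 2, 0.88 below number 1 (limma adjusted p = 0.0038). GINS2 followed the same order of numbers, with 0.65 for number 1 minus number 2 and -0.50 for number 2 minus number 3. GINS1 was higher in number 1 than in numbers 2 and 3 by 0.48 and 0.42. CDC45, which joins GINS and MCM in the active helicase, had 0.19 for number 1 minus 2 and 0.27 for number 1 minus 3, and did not pass (F-test, limma adjusted p = 0.20).

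PCNA, the sliding clamp, was at 11.51 and 11.64 in number 1, 11.10 and 10.96 in number 2 and 10.84 and 10.78 in number 3. Both arrays of number 1 were above the other 4 and both of number 3 below them, a gap of 0.77 (SE 0.11), or 1.70-fold. The clamp is loaded by the RFC complex, of which RFC4 was at 10.42 and 10.35 in number 1, 10.55 and 10.49 in number 2 and 10.02 and 10.04 in number 3. It was lowest in number 3, by 0.36 against number 1 and 0.49 against number 2, and did not share the gap of PCNA between numbers 1 and 2. RFC2, RFC3 and RFC5 did not pass (F-test, limma adjusted p = 0.61, 0.088 and 0.34). RFC3 was, like RFC4, highest on both arrays of number 2 and lowest on both of number 3.

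In the polymerase group 3 of 4 genes differed (35.1% of all genes), in both directions. POLE2, a subunit of the leading strand polymerase epsilon, was at 8.65 and 8.54 in number 1, 8.28 and 8.36 in number 2 and 7.86 and 8.09 in number 3. Number 1 was above the other 4 and number 3 below them, 0.62 apart. POLD1 was at 9.07 and 8.71 in number 1, 8.90 and 8.84 in number 2 and 9.52 and 9.07 in number 3. FEN1, the nuclease that trims flaps between Okazaki fragments, was at 10.23 and 10.36 in number 1, 10.40 and 10.41 in number 2 and 10.79 and 10.85 in number 3. Both were higher in number 3: number 1 minus number 3 was -0.53 for FEN1 and -0.41 for POLD1, and number 2 minus number 3 was -0.42 and -0.43. The arrays of FEN1 did not overlap, while POLD1 on PRMT5_down 3 equalled control 1. POLA1 was lowest in number 3; its F-test did not pass (limma adjusted p = 0.073), while its contrast of number 1 with 3 did (limma adjusted p = 0.037).

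All 4 genes of nucleotide supply differed between numbers (35.1% of all genes). RRM2, the subunit of ribonucleotide reductase that rises and falls with the cell cycle, was at 10.05 and 10.31 in number 1, 9.36 and 9.14 in number 2 and 9.33 and 9.40 in number 3. Number 1 was 0.93 above number 2 and 0.82 above number 3 (SE 0.13 each, limma adjusted p = 0.0030 and 0.0029), or 1.91-fold and 1.76-fold. RRM1, its partner, was at 9.82 and 9.82 in number 1, 9.43 and 9.39 in number 2 and 9.22 and 9.23 in number 3. TYMS was at 11.74 and 11.73 in number 1, 11.33 and 11.34 in number 2 and 11.37 and 11.43 in number 3. These 3 genes had both arrays of number 1 on top. Thymidine kinase TK1 was at 10.57 and 10.44 in number 1, 9.93 and 10.07 in number 2 and 10.59 and 10.61 in number 3. Number 1 minus number 3 was -0.10 (SE 0.11), which did not pass, and number 1 minus number 2 was 0.51, with both arrays of number 2 below the rest.

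CCNE2 had the largest gap of all 35, 1.31 over number 2 and 1.36 over number 3 (SE 0.13 each, limma adjusted p = 0.0011 and 0.00070), or 2.48-fold and 2.56-fold. Its level in control 1, 7.65, exceeded that of PRMT5_down 2 and 3, 6.79 and 6.73. E2F2, a transcription factor that activates these genes, was at 8.25 and 8.55 in number 1, 7.67 and 7.57 in number 2 and 8.13 and 7.71 in number 3. Number 1 was above the rest, by 0.78 over number 2. CCNE1 was higher in number 1 by 0.39 over number 2 (F-test, limma adjusted p = 0.049). E2F1 had its lowest arrays in number 2, 0.35 below number 1, and did not pass (F-test, limma adjusted p = 0.081).

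Of the genes of chromatin and histone messages, UHRF1, which brings DNA methylation to newly made strands, was at 9.18 and 9.53 in number 1, 8.51 and 8.53 in number 2 and 8.89 and 8.88 in number 3. Number 1 exceeded number 2 by 0.84 (SE 0.12), or 1.78-fold, and number 3 by 0.47. SLBP was at 9.93 and 10.17 in number 1, 10.40 and 10.51 in number 2 and 9.97 and 10.22 in number 3. It ran opposite to most members, with both arrays of number 2 on top and -0.41 for number 1 minus number 2. CHAF1A and CHAF1B, subunits of the factor that places histones on new DNA, and DTL did not pass (F-test, limma adjusted p = 0.12, 0.50 and 0.43). Both arrays of number 1 were the lowest for CHAF1A and the highest for DTL.

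The differences between numbers can be read in each group alone, with 1 array each and so with no test. Number 1 minus number 2 had the same sign in controls and in PRMT5_down for 32 of the 35 genes (64.3% of all genes), with medians of 0.22 and 0.20. For number 1 minus number 3 this held for 29 (71% of all genes), with medians of 0.15 and 0.25, and for number 2 minus number 3 for 29 (66.7% of all genes). In other probe sets above background for the same genes, 44 in 24 genes, the sign of number 1 minus number 2 was that of the probe set used in all 44, and that of number 1 minus number 3 in 39. The second CCNE2 probe set gave 1.11 and 1.14, and the second RRM2 probe set gave 0.31 and 0.84. With 1 array left out the fit has a single residual degree of freedom and called 0 of the 35 and 0 of all genes, while the largest of the 3 gaps kept its sign for each of the 21 genes. These genes and gaps were picked from the same arrays, so the kept sign adds little. Fitted on the number alone, without the group, the count of members called was 18 with all arrays. In that fit it was 5 without control replicate 2, 5 without PRMT5_down replicate 2, 11 without PRMT5_down replicate 1 and 13 without control replicate 1, with 1932, 2092, 2747 and 4013 called over all genes.

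**Figure D4:**
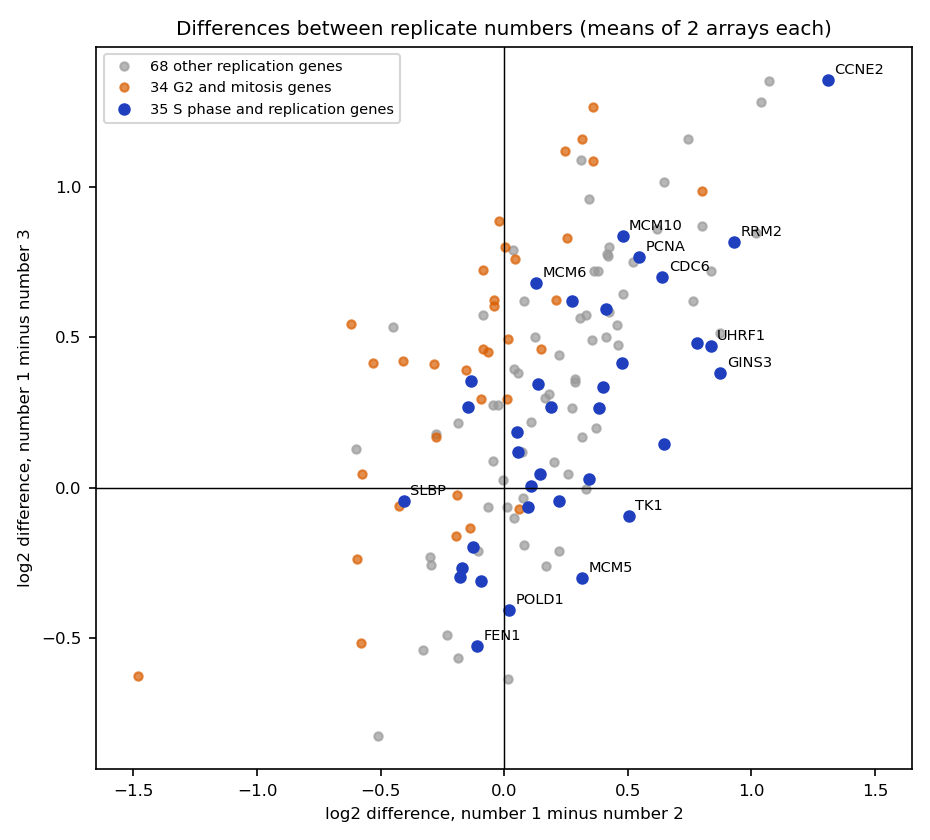
Log2 difference between replicate numbers for single genes, number 1 minus number 2 across and number 1 minus number 3 up, each number the mean of 2 arrays, for the 35 S phase and replication genes (blue), 68 other replication genes (grey) and 34 G2 and mitosis genes (orange). Among the blue points CCNE2 lies farthest to the upper right at 1.31 and 1.36, and FEN1 and POLD1 lie below 0 on the vertical axis at -0.53 and -0.41.

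Further genes of replication and of its control were read from a list of 69, of which 68 were measured. The list also holds genes that restrain S phase, such as the retinoblastoma family genes RB1, RBL1 and RBL2 and the CDK inhibitors CDKN1A and CDKN1B. Its counts are therefore not counts of replication factors alone. Between PRMT5_down and control 0 of the 68 passed, with 44 positive differences, 23 negative, 1 at 0 and a median of 0.04; 43.3% of all genes had a positive one. At an unadjusted p under 0.05 limma gave 0 of the 68 without the block and 6 with it, 5 higher (4.45% of all genes) and 1 lower (3.8%), none of which passed the adjustment. The 2 largest differences were among these 6, E2F5 at -0.33 and CLSPN at 0.33 (limma adjusted p = 0.56 for each with the block); both were named after their values were seen. Those with the smallest p without the block were, on the positive side, the fork protection gene TIPIN at 0.22 (SE 0.13) and MCM9 at 0.26 (SE 0.15), and on the negative side the DNA ligase LIG1 at -0.19 (SE 0.12) and TIMELESS, the partner of TIPIN, at -0.15 (SE 0.11); all had a limma adjusted p of 1. Between numbers 45 of the 68 passed the F-test, or 66.2% (35.1% of all genes). Higher in number 1 than in number 2 were 19 (9.11% of all genes), and higher in number 1 than in number 3 were 36 (14.8%). The smallest p belonged to WDHD1, which ties the helicase to the priming polymerase, to CDC7, the kinase that fires origins, and to ATAD5, which unloads PCNA. CDC7 was at 8.31 and 8.41 in number 1, 7.30 and 7.28 in number 2 and 6.80 and 7.22 in number 3. It stood 1.07 above number 2 and 1.35 above number 3. WDHD1 stood 0.75 and 1.16 above them and ATAD5 0.31 and 1.09.

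The genes of G2 and mitosis had another order of numbers. Of 34 measured, 27 passed the F-test between numbers, or 79.4% (35.1% of all genes). Higher in number 1 than in number 2 were 3 (9.11% of all genes) and lower were 8 (9.01%). Against number 3, 22 were higher in number 1 (14.8% of all genes) and 25 were higher in number 2 (10.1%). Their median was -0.08 for number 1 minus 2 and 0.46 for number 1 minus 3, where the 35 S phase and replication genes had 0.22 and 0.27 and all genes -0.02 and -0.06. The mitotic cyclin CCNB1 was at 9.48 and 9.03 in number 1, 10.75 and 10.72 in number 2 and 9.86 and 9.90 in number 3, so its lowest arrays were those where CCNE2 was highest. CCNB1 was chosen here after its values were seen, and it does not stand for its list. Both arrays of number 1 lay below the other 4 for 5 of the 34 genes (18.1% of all genes). They lay above the other 4 for 8 (13.9%). The difference between the lists was not tested.

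**Figure D5:**
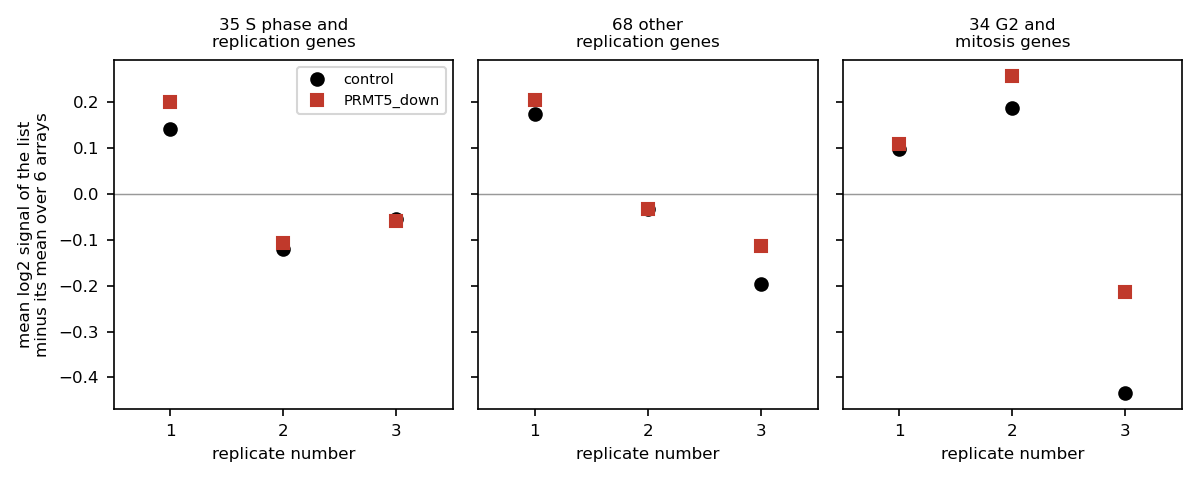
Mean log2 signal of each gene list on each array, minus its mean over the 6 arrays, by replicate number for control (circles) and PRMT5_down (squares). The S phase and replication genes are highest in number 1, at 0.14 and 0.20, and the G2 and mitosis genes lowest in number 3, at -0.43 and -0.21.

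Some other measures differed between the numbers. PRMT5 itself was lowest in number 1: number 1 minus number 2 was -0.72 and number 1 minus number 3 was -0.56 (F-test, limma adjusted p = 0.013), and in controls alone they were -0.42 and -0.37. Among the control transcripts on the array, the gap between the 3' and 5' probe sets of actin, which widens as RNA breaks down, was 1.09 and 1.22 in number 1, 1.02 and 1.02 in number 2 and 0.73 and 0.84 in number 3 (control first), while that of GAPDH lay between 0.06 and 0.14. Of the marker lists, 7 of 10 erythroid markers passed the F-test between numbers, 2 of 9 fibroblast and epithelial markers, 1 of 8 T and NK cell markers, and 0 of 8 monocyte and granulocyte and 0 of 13 plasma cell markers (35.1% of all genes). The summed erythroid signal was 85.9 to 90.1 in number 1, 82.7 to 86.0 in number 2 and 82.3 to 88.3 in number 3. The sums of 3 lists did not overlap between any of the numbers, but each number has only 2 arrays. No share over all genes was worked out for such sums. For T and NK cell markers, of which 2 of 8 were above background on all arrays, they were 38.3 to 38.6 in number 1, 37.7 to 37.8 in number 2 and 40.4 to 40.7 in number 3. The marker called there was CD3D, with -1.59 for number 2 minus number 3. CD3D was at 7.54 and 7.39 in number 1, 6.81 and 6.64 in number 2 and 8.20 and 8.42 in number 3. Between numbers 1 and 2 its arrays alone were further apart than the sums. For fibroblast and epithelial markers, 4 of 9 above background, the sums were 50.8 to 51.0, 50.2 to 50.6 and 51.1 to 51.3, and the markers called were EPCAM and the keratin KRT18, with -0.53 for number 1 minus number 3 in KRT18 and 0.74 in EPCAM. For monocyte and granulocyte markers, 2 of 8 above background, the sums were 34.08 to 34.46, 34.52 to 34.88 and 34.91 to 35.67. These ranges nearly touched, and 0 of the 8 markers passed the F-test. The plasma cell sums were 59.7 to 61.5, 60.0 to 60.6 and 61.5 to 62.2. All sums include markers at background, among them IRF4, CD38, TNFRSF17, MZB1, POU2AF1, CD27 and SLAMF7 of the plasma cell list. The part of these measures in the differences between numbers was not tested. In RNA of a whole sample, more cells in S phase and more message per cell cannot be told apart.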

How the data were processed

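The authors deposited log2 signals made with RMA, per the submitters' processing notes; software versions are not given there. RMA gives all arrays 1 distribution, which hides a shift common to most genes. Of 49372 probe sets, 44988 had 1 gene symbol, 1832 several, 2473 none here, and 79 were controls. The single-symbol probe set with the highest mean stood for each gene. Groups and numbers come from the titles.

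Each model ran over all 18132 genes in limma (version 3.58.1, R 4.3.3; lmFit, eBayes), and p-values were adjusted by Benjamini-Hochberg, with calls under 0.05. PRMT5_down was compared with control without a block; the numbers were compared with the group in the model. Same-numbered arrays deviated together from their group means (r = 0.82, 0.72 and 0.79; minimum 0.1), which was taken as pairing, known from the data only. The members and lists were chosen with earlier results of these data known. Named are PRMT5, the members called between numbers and, per role, those with the smallest p in each comparison; the other members are given so that all are accounted for.

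The fits were tested on simulated data. With gene variances as limma assumes them, false calls between numbers stayed close to the threshold; with variances that depart from that they clearly exceeded it, so calls close to the threshold, such as CCNE1 and POLD1, are less sure. Alternatives were normalization, filters on dim genes, probe set rules, variance models, array weights and left-out arrays.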

Additional observations from a re-analysis of the deposited data

How the results depend on the processing

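Fits that pair the replicate block with a further choice, and arrays left out of the fit on the number alone, were chosen after seeing the data. Between PRMT5_down and control limma called 0 of the 35 members and 0 of the 68 further replication genes under each setting run. The replicate block changed no call at an adjusted p; at an unadjusted p under 0.05 it gave 5 members against 0 without it. PRMT5 stayed lower under each setting, from -1.19 to -0.68 with 1 array left out. It was called at -0.98 with the replicate block plus trend and robust (adjusted p = 0.028) and with the replicate block plus the lowest 50% left out (adjusted p = 0.037); the cause was not tested. The median of the members was 0.013 with the most variable probe set, 0.02 with pair 3 left out of the replicate block fit, and -0.072 to 0.11 with 1 array left out. Among named members, never called, the sign turned for TYMS and RRM2 with array weights (-0.073 and -0.24), for RFC5 and RRM2 with pair 1 left out of the block fit (0.045 and -0.075) and for RFC2 with pair 3 left out (0.065), where TYMS was at 0.00. With 1 array left out the ranges that crossed 0 were -0.21 to 0.0033 for CCNE1, -0.15 to 0.74 for CCNE2, -0.14 to 0.037 for RFC2, -0.22 to 0.042 for RFC5, -0.31 to 0.28 for RRM2 and -0.095 to 0.15 for TYMS.

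Between numbers, the 21 members called were 18 to 22 under the settings that kept all 6 arrays, and 0 with any 1 array left out, where 1 residual degree of freedom remains. Without the group term they were 13 without control replicate 1, 5 without control replicate 2, 11 without PRMT5_down replicate 1, 5 without PRMT5_down replicate 2, and 15 and 19 without replicate 3 of either group. The median of number 1 minus 2 was 0.20 after quantile normalization, 0.275 with the most variable probe set and 0.195 to 0.285 with 1 array left out. Without the group term it was 0.20 to 0.315, with 0.24 without PRMT5_down replicate 1. That of number 1 minus 3 was 0.18 with the mean of probe sets, 0.19 to 0.28 with 1 array left out, and down to 0.175 without the group term. The number of arrays, 3 per group and 2 per number, limits the precision.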
